A study of Saccharomyces cerevisiae with 8 samples.

Results

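U24, named snR24 in yeast, is a box C/D small nucleolar RNA, and its partners in the mature ribosome are 3 ribose-methylated nucleotides of 25S rRNA, Cm1437, Am1449 and Gm1450. The members described here were the rows of the reference snR24_extended (the snoRNA with its flanks), 1 of the 4 snoRNA references listed for WT and Delta_Dbp3, and these 3 of the 55 annotated methylation sites of 18S and 25S, in all 4 groups. They were chosen by name and not by a cut on any measured value, though with earlier results of these data known. The assignment of the sites to U24 is general knowledge of yeast snoRNAs. It was checked against the sequences of the deposited tables, as described below.

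Whole cell RNA came from exponentially growing budding yeast cultures, with 2 libraries, A and B, in each of 4 groups. WT is the wild type. Delta_Dbp3 is labelled as lacking Dbp3, a DEAD-box RNA helicase of ribosome assembly. PRP43_Gal and PRP43_Glu are a strain with PRP43, which encodes a DEAH-box helicase of ribosome assembly and splicing, behind a GAL promoter, and the labels name galactose and glucose media, the former inducing and the latter repressing that promoter. Medium and promoter state therefore cannot be told apart between PRP43_Gal and PRP43_Glu, strain and medium cannot be told apart between PRP43_Gal and WT, and the labels give neither the time in glucose nor which medium WT and Delta_Dbp3 grew in. Per the file headers, the 2 libraries of Delta_Dbp3 and the 2 of PRP43_Glu carried the same pair of barcodes and the other 4 libraries carried other barcodes, so barcode and group cannot be told apart. Levels of Dbp3 and Prp43 were not measurable from these tables. Read ends on 18S plus 25S ranged from 5557319 in PRP43_Glu A to 14191112 in PRP43_Gal B. The design states biological duplicates.

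Box C/D snoRNAs carry short antisense elements that pair with rRNA, and the methyltransferase fibrillarin (Nop1 in yeast) of the same particle methylates the rRNA nucleotide that lies a fixed distance from box D or box D′ of the snoRNA. Helicases can act on such base pairing while the precursor ribosome folds. U24 is released from an intron of ASC1, the gene of a ribosome-associated protein, rather than from a transcript of its own. Ribose methylation is read in RiboMeth-seq from alkaline cleavage, which spares the bond next to a methylated ribose, so that a methylated nucleotide shows as a gap in the read ends.

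The snoRNA is shown first because both guide elements and the order of the results follow from it. The reference of 189 nucleotides holds 50 nucleotides on each side of an 89-nucleotide body, a length that matches SNR24 in RefSeq. Capitals mark the runs complementary to 25S.
U24 (snR24), body: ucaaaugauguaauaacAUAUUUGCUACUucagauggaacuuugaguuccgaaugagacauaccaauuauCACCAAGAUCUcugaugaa
The stretch of 25S from nucleotide 1433 to 1457 carries all 3 sites, in capitals.
25S target stretch: agauCuuggugguaguAGcaaauau
The first run covers snR24 nucleotides 18 to 29 and pairs with 25S nucleotides 1446 to 1457 over 12 Watson-Crick pairs. In its sequence the capitals are the nucleotides opposite Gm1450 and Am1449, in that order.
U24 guide run for Am1449 and Gm1450: auauuugCUacu
The second run covers snR24 nucleotides 71 to 81 and pairs with 25S nucleotides 1433 to 1443 over 11 pairs. The capital is opposite Cm1437.
U24 guide run for Cm1437: caccaaGaucu

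Each run had 1 exact complement of its full length in 25S and 0 in 18S. The letters that begin 5 nucleotides downstream of the snoRNA nucleotide opposite Cm1437 are CUGA, the box D sequence, at nucleotides 82 to 85 of the body. For Am1449 the corresponding letters are CAGA, and for Gm1450 they are UCAG, so both neighbouring targets lie opposite the same guide run, at registers 1 nucleotide apart. Box C, searched as AUGAUG, lies at nucleotides 5 to 10 of the body and occurs once more in the upstream flank. On the strand of the RNA, AUGAUG is held by 1.67% and CUGA by 32.5% of the 5020 windows of 89 nucleotides in 18S and 25S. These windows overlap, each being shifted by 1 nucleotide from the one before. In the body the box matches and the guide runs did not overlap each other.

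In WT all 3 targets were close to fully protected. The score compares the read ends counted at a nucleotide with those expected from 6 neighbours on each side, from 0 (no fewer than the neighbours predict) to 1 (no read end). Cm1437 scored 0.971 and 0.973 in WT A and B, on 412 and 113 read ends where 14123 and 4191 were expected. Am1449 scored 0.974 in both, on 94 and 44 read ends against 3656 and 1701 expected. Gm1450 scored 0.986 and 0.97, on 40 and 44 read ends against 2943 and 1490. The duplicates were closest at Am1449. At Gm1450 the exact Poisson intervals (95%) of the unprotected share, the read ends as a percent of those expected, did not overlap between the duplicates, at 0.971% to 1.85% in A and 2.15% to 3.96% in B. These intervals cover counting error only, since reads without molecular identifiers are not independent molecules.

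Without Dbp3 the score fell at every U24 target, most in the mean at Am1449 and least at Cm1437. Differences between sites were not tested. Cm1437 scored 0.859 and 0.818 in Delta_Dbp3 A and B. Am1449 scored 0.731 and 0.729. Gm1450 scored 0.734 and 0.831. The Delta_Dbp3 libraries were under the WT range at each of the 3 sites. The same held for 69.1% of the 55 sites. The plot of scores at the 3 targets shows tight duplicates at Am1449 and duplicates further apart at Gm1450.

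**Figure D1:**
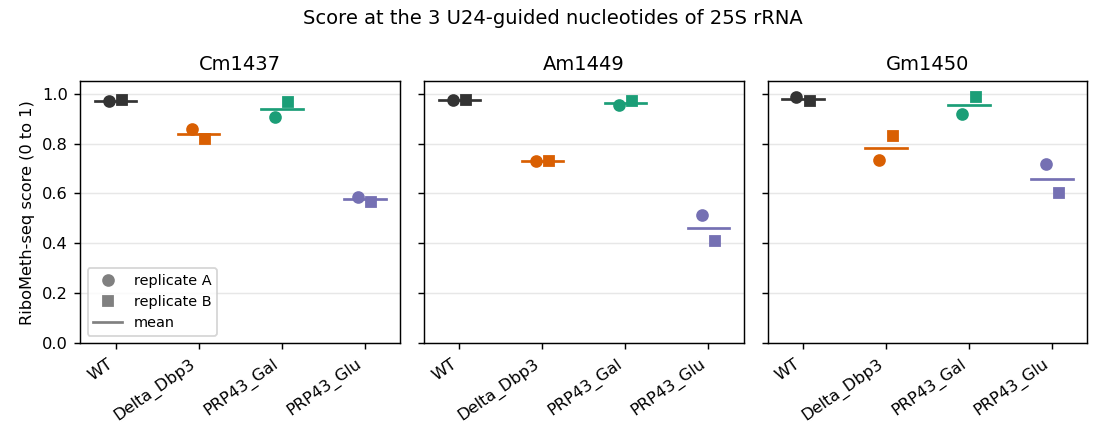
RiboMeth-seq score (y axis, 0 to 1) at the 3 nucleotides of 25S guided by U24, for the 4 groups on the x axis, with replicate A as circles, replicate B as squares and the mean as a line. WT libraries lie between 0.97 and 0.986, Delta_Dbp3 libraries between 0.729 and 0.859, PRP43_Gal libraries between 0.908 and 0.985, and PRP43_Glu libraries between 0.41 and 0.717.

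In group means, Cm1437 went from 0.972 ± 0.00156 to 0.838 ± 0.0289 (SD, n = 2 here and below), a change of -0.134 with an SE of 0.0246 and an adjusted p of 0.0145 (limma over all 55 sites, Benjamini-Hochberg). Am1449 went from 0.974 ± 0.000108 to 0.73 ± 0.00158, a change of -0.244 with an SE of 0.0334 and an adjusted p of 0.00636 in the same limma fit. Gm1450 went from 0.978 ± 0.0113 to 0.782 ± 0.0689, a change of -0.196 with an SE of 0.0518 and an adjusted p of 0.0431 in that fit. Each limma SE, here and below, pools the spread of all 4 groups, so it does not measure that of the compared groups alone. At Am1449 the largest SD was that of PRP43_Glu, at 0.0726. All 3 targets passed, where 27.3% of the 55 sites passed in this direction and 0 rose. The call at Am1449 held in all 18 alternative settings and single-library omissions, that at Cm1437 in 15 and that at Gm1450 in 8. Gm1450 was not called when either WT library was left out (adjusted p = 0.168 without A and 0.149 without B), without Delta_Dbp3 A (0.137) or without either PRP43_Gal library (0.0682), and Cm1437 was not called without WT A (0.0878) or WT B (0.0698), all by limma.

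Put as unprotected share, a description of the same read ends with no test of its own, the groups differed several-fold. At Cm1437 the mean share was 2.81% in WT and 16.2% in Delta_Dbp3, a ratio of 5.76. At Am1449 it was 2.58% and 27%, a ratio of 10.5. At Gm1450 it was 2.16% and 21.8%, a ratio of 10.1 that became 16 without WT B and 7.37 without WT A. Duplicates of Delta_Dbp3 agreed at Am1449 within counting error, with intervals of 24.4% to 29.6% and 24.9% to 29.4%. They did not at Gm1450, where A gave 24.2% to 29.3% and B gave 15.1% to 18.8%, nor at Cm1437, where A gave 12.7% to 15.7% and B gave 16.8% to 19.7%.

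Both kinds of read end bear on the same bond, and in Delta_Dbp3 they gave different levels at these sites. From 5′ ends alone, Am1449 scored 0.658 and 0.706 in Delta_Dbp3 A and B, and from 3′ ends alone it scored 0.848 and 0.807. At Cm1437 the 5′ ends gave 0.785 and 0.609, and the 3′ ends 0.863 and 0.869. At Gm1450 the order of the duplicates turned: the 5′ ends gave 0.666 and 0.865, whereas the 3′ ends gave 0.861 and 0.724. Am1449 was the only target called with 5′ and with 3′ ends alone. With 3′ ends alone Cm1437 had an adjusted p of 0.109 and Gm1450 of 0.274, and with 5′ ends alone Gm1450 had 0.11 (limma).

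In the strain with PRP43 behind the GAL promoter, the 3 targets were lower in glucose than in galactose. In PRP43_Gal A and B, Cm1437 scored 0.908 and 0.966, Am1449 0.955 and 0.972, and Gm1450 0.92 and 0.985. In PRP43_Glu A and B, Cm1437 scored 0.587 and 0.566. Am1449 scored 0.513 and 0.41, and Gm1450 scored 0.717 and 0.601. The groups did not overlap at any of the 3 sites, which was the case, with PRP43_Glu below, at 70.9% of the 55 sites.

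Am1449 had the largest change of the 3. Its mean went from 0.963 ± 0.0126 in PRP43_Gal to 0.461 ± 0.0726 in PRP43_Glu, a change of -0.502 with an SE of 0.0334 and an adjusted p of 0.000155 (limma). Cm1437 went from 0.937 ± 0.0409 to 0.576 ± 0.0145, a change of -0.361 (SE 0.0246, adjusted p = 0.000155, limma). Gm1450 went from 0.953 ± 0.0457 to 0.659 ± 0.0824, a change of -0.294 (SE 0.0518, adjusted p = 0.00461, limma). All 3 passed, where 56.4% of the 55 sites passed in this direction. These calls held in all 18 alternatives at each of the 3 sites. At Am1449 the unprotected share was 48.7% and 59% in PRP43_Glu A and B. The mean share at Am1449 in PRP43_Glu was 14.8 times that in PRP43_Gal, against 6.72 times at Cm1437 and 7.19 times at Gm1450. The order of these ratios depended on PRP43_Gal A, whose share was 7.98% at Gm1450 and 9.2% at Cm1437 beside 1.51% and 3.41% in B. Without it the ratios were 22.6 at Gm1450, 19.5 at Am1449 and 12.4 at Cm1437, and without PRP43_Gal B the ratio at Gm1450 was 4.28.

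Read ends around the targets show how local the protection was. In the 38 nucleotides from 12 before Cm1437 to 12 after Gm1450, none of the 35 other nucleotides scored above 0.9 in any of the 8 libraries, and their highest single score was 0.776. All 3 targets scored above 0.9 in every WT and PRP43_Gal library, and below it in every Delta_Dbp3 and PRP43_Glu library. The highest group mean of another nucleotide was 0.621 in WT and 0.496 in PRP43_Gal. It was 0.73 in Delta_Dbp3 and 0.457 in PRP43_Glu, beside 0.73 and 0.461 at Am1449, so Am1449 did not stand out there. The median score of those nucleotides was 0. Their median change was 0 from WT to Delta_Dbp3 and also from PRP43_Gal to PRP43_Glu, and 5 of the 35 fell by more than 0.1 in each comparison, with most negative changes of -0.388 and -0.226. The first of these is larger in size than the change at any of the 3 targets in Delta_Dbp3, and the second is smaller than at any of the 3 in PRP43_Glu. The changes at nucleotides without an annotated methyl group were not tested.

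**Figure D2:**
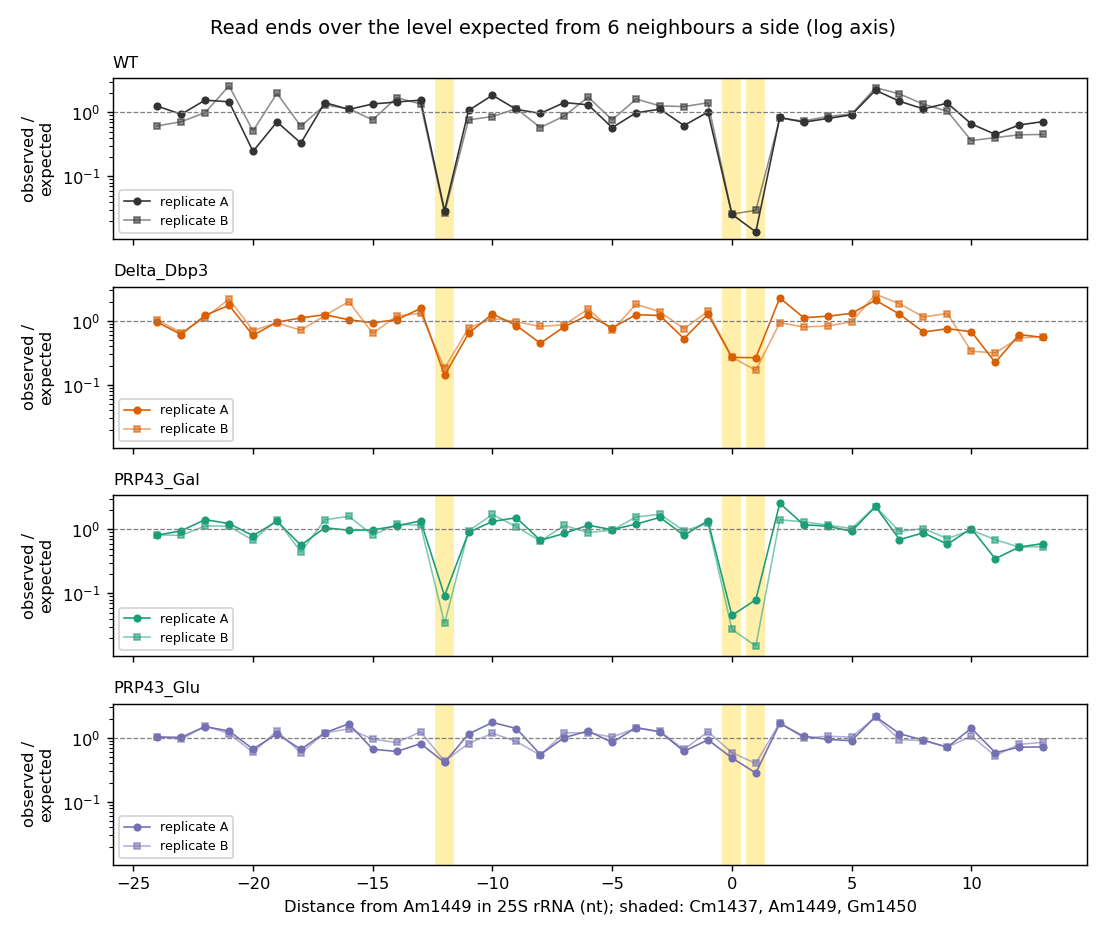
Read ends over the number expected from the neighbours (y axis, log scale, dashed line at 1) against distance from Am1449 in nucleotides (x axis), with 1 panel a group and 1 line a library. The 3 shaded targets are the deep minima in WT and PRP43_Gal, and in PRP43_Glu they reach 28.3% to 59% of the expected read ends.

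Am1449 was the lowest of the 3 targets in all 4 Delta_Dbp3 and PRP43_Glu libraries. It scored below Gm1450 in 6 of the 8 libraries and below Cm1437 in 4, which are those 4. Between Cm1437 and Gm1450 no such order held, since Gm1450 was the lower in 1 of the 4 and Cm1437 in the others. Am1449 and Gm1450 lie within each other's set of neighbours, so that a loss of protection at 1 of them raises the expected count at the other. With annotated neighbours left out of that expectation, Am1449 scored 0.761 and 0.748 in Delta_Dbp3 and 0.558 and 0.456 in PRP43_Glu, and Gm1450 scored 0.749 and 0.848 and then 0.73 and 0.618. Under that setting Am1449 was below Gm1450 in both PRP43_Glu libraries and in Delta_Dbp3 B, and above it in Delta_Dbp3 A.

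By the limma test, PRP43_Gal was not distinguished from WT at any of the 3 targets. The changes were -0.035 at Cm1437 (95% interval -0.0971 to 0.0271), -0.0107 at Am1449 (-0.0951 to 0.0736) and -0.0259 at Gm1450 (-0.157 to 0.105), with adjusted p-values of 0.707, 0.913 and 0.913 in limma. In this comparison 0% of the 55 sites passed in the downward direction. Still, both PRP43_Gal libraries were below both WT libraries at Cm1437 and Am1449, as at 24 of the 55 sites. At Gm1450 the libraries overlapped. The mean unprotected share in PRP43_Gal was 6.31% at Cm1437, 3.65% at Am1449 and 4.74% at Gm1450. In WT it was 2.81%, 2.58% and 2.16%. The change of each site in Delta_Dbp3 (-0.134, -0.244 and -0.196 in the same order) lies outside the interval of that site here. The interval of Gm1450 is the widest and would hold a change of -0.134, the size seen at Cm1437. PRP43_Gal A was the lower duplicate at all 3 sites. At Gm1450 it scored 0.982 from 5′ ends and 0.836 from 3′ ends, on 37 and 256 read ends. PRP43_Glu against WT gave changes of -0.396, -0.513 and -0.32 in the same order, all past the limma threshold (adjusted p = 0.000116, 0.000116 and 0.00385), where 69.1% of the 55 sites passed downward; it shares the PRP43_Glu libraries with the comparison above.

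The 2 falls were then compared with each other. The change in Delta_Dbp3 less the change in PRP43_Glu was 0.227 at Cm1437 (SE 0.0348, adjusted p = 0.00922) and 0.258 at Am1449 (SE 0.0472, adjusted p = 0.011), so both fell further in PRP43_Glu (limma). At Gm1450 it was 0.0978 with a 95% interval of -0.0872 to 0.283 and an adjusted p of 0.361. In this test 41.8% of the 55 sites passed in either direction. On a log2 odds scale, with 5′ ends alone and with edgeR on read ends, 0 of the 3 passed.

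Against the other annotated sites, the U24 targets were not at the extreme in Delta_Dbp3. Ordered from the most negative change, Am1449 stood 9th, Gm1450 10th and Cm1437 17th of 55. From PRP43_Gal to PRP43_Glu, Am1449 stood 3rd, Cm1437 8th and Gm1450 13th. The median change of the 3 targets was -0.196 in Delta_Dbp3, against -0.0327 over the 55 sites, and -0.361 in PRP43_Glu, against -0.135. All 3 targets lie in 25S, which holds 37 of the sites. Of these 37, 14 passed downward in Delta_Dbp3, with a median change of -0.0834. From PRP43_Gal to PRP43_Glu 23 of the 37 passed downward, with a median of -0.163.

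**Figure D3:**
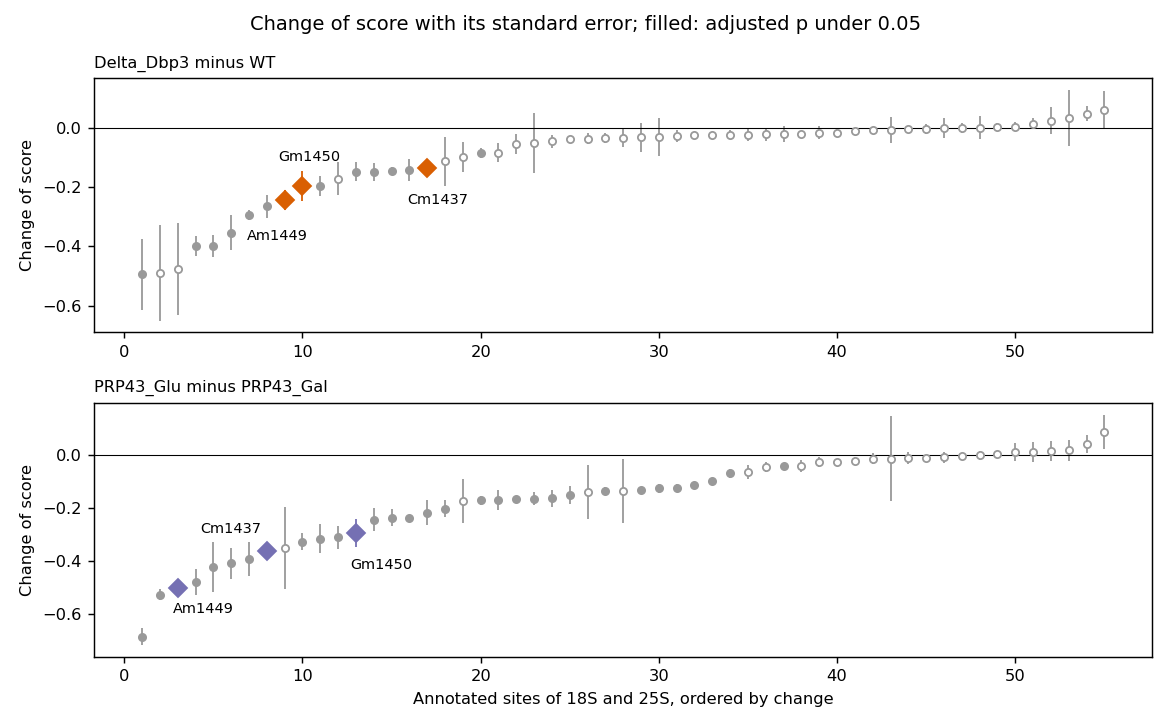
Change of score (y axis) with its standard error at the 55 annotated sites, ordered from the most negative (x axis), for Delta_Dbp3 minus WT above and PRP43_Glu minus PRP43_Gal below. Coloured diamonds are the 3 U24 targets and filled symbols had an adjusted p under 0.05; Am1449 stands 9th above and 3rd below.

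U18, like U24 an intron-encoded box C/D snoRNA (its host is EFB1), guides Am649 and Cm650 of 25S, again a pair of neighbouring nucleotides. In Delta_Dbp3, Am649 fell by 0.145 (adjusted p = 0.000921) and Cm650 had a change of -0.171 that did not pass (adjusted p = 0.0791, limma). From PRP43_Gal to PRP43_Glu they changed by -0.237 and -0.316, and both passed. The targets of snR60, Am817 and Gm908, had the opposite order of both effects, with changes of -0.294 and -0.399 in Delta_Dbp3 and of -0.17 and -0.151 in PRP43_Glu, all past the threshold. The difference of both changes was -0.124 at Am817 and -0.248 at Gm908 (adjusted p = 0.0118 at each, limma), with the sign opposite to that of Cm1437 and Am1449. Am2256, the target of snR63, had a change of -0.0834 in Delta_Dbp3 (adjusted p = 0.134) and fell by 0.163 in PRP43_Glu (adjusted p = 0.00769).

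Of the 8 sites guided by intron-encoded snoRNAs, U24 included, 4 passed downward and 0 upward in Delta_Dbp3, with a median change of -0.139. Of the 55 sites, 27.3% passed downward. These 4 were the 3 U24 targets and Am649. Apart from the U24 targets, 1 of 5 passed, close to that share, with a median of -0.0985. From PRP43_Gal to PRP43_Glu all 8 passed downward, where 56.4% of the 55 sites did, with a median of -0.305. The 5 apart from the U24 targets had a median of -0.237. Whether called or not, all 8 had both Delta_Dbp3 libraries below both WT libraries, as had 69.1% of the 55 sites. Likewise all 8 had both PRP43_Glu libraries below both PRP43_Gal libraries, as had 70.9% of the 55. Am807, guided by snR39 and snR59, had a change of -0.0985 in Delta_Dbp3 (adjusted p = 0.215) and fell by 0.481 in PRP43_Glu, while Am974 of 18S, guided by snR54, had -0.0256 (adjusted p = 0.19) and fell by 0.0415. Gm2815, guided by snR38, had -0.0241 (adjusted p = 0.161) and fell by 0.111.

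The sites whose scores over the 8 libraries were most like those of Am1449 were Am28 of 18S (Pearson r = 0.994), Am649 of 25S (0.98) and Cm1437 (0.975). Within 25S the third was Gm805 (0.972), and Gm1450, the adjacent nucleotide, came 7th over both rRNAs with 0.965. These correlations describe 8 points that share 4 groups, and sites that were high in WT and PRP43_Gal and low in the other groups have a high r by that alone.

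The level of the snoRNA itself was taken from the read ends on snR24_extended in WT and Delta_Dbp3, and in the PRP43 groups it is not analysed here. The whole reference with its flanks held 846 and 556 read ends in WT A and B and 750 and 414 in Delta_Dbp3 A and B. Scaled to 1000000 read ends on 18S plus 25S (scaled read ends below) these were 69.3, 50.6, 66.6 and 42.6. The groups overlapped, and in each group replicate A was the higher. The means were 59.9 ± 13.2 in WT and 54.6 ± 17 in Delta_Dbp3, a ratio of 0.912, with a p of 0.667 in an exact two-sided permutation test. With 2 libraries against 2 that test cannot go below 0.333. Leaving out WT A or Delta_Dbp3 B turned the ratio to 1.08 or 1.11. Whole cell RNA does not tell apart free snoRNA from snoRNA held on preribosomes, nor fewer molecules from fewer fragments of the selected size of 20 to 40 nucleotides.

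**Figure D4:**
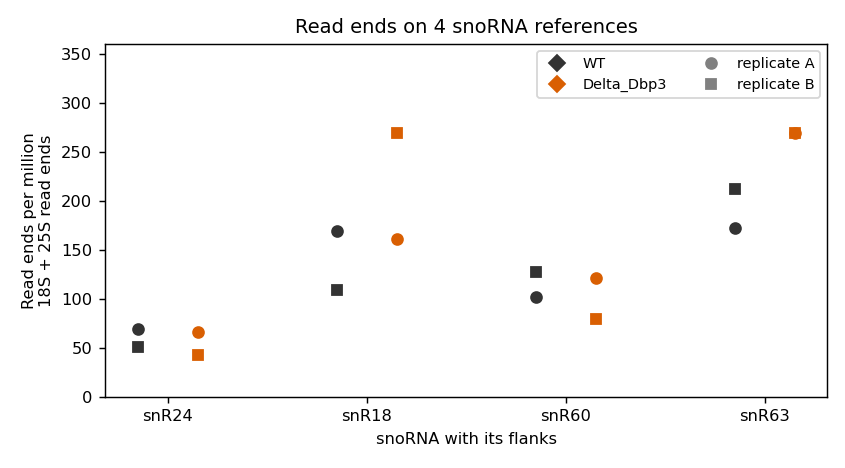
Read ends per 1000000 read ends on 18S plus 25S (y axis, from 0) on the 4 snoRNA references with their flanks (x axis), 1 point a library, WT in black and Delta_Dbp3 in orange, replicate A as circles and B as squares. The snR24 libraries lie between 42.6 and 69.3 with the groups overlapping, and at snR63 both Delta_Dbp3 libraries lie at 269, above both WT libraries.

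The other snoRNA references of the same tables gave 169 and 109 in WT and 161 and 269 in Delta_Dbp3 for snR18, and 102 and 127 in WT and 121 and 79.8 in Delta_Dbp3 for snR60, each as scaled read ends, A before B. snR63 gave 172 and 212 in WT and 269 in both Delta_Dbp3 libraries, the only 1 of the 4 whose groups did not overlap (ratio 1.4, exact permutation p = 0.333, 0.667 adjusted over the 6 values tested). Per nucleotide of reference, flanks included, snR24 had 0.225 to 0.367 scaled read ends and was the lowest of the 4 in every library. The lower end of that range is Delta_Dbp3 B. The divisor counts all 189 nucleotides of the snR24 reference, although 89 of them are body and the flanks held few read ends. The share of flank in the other references was not compared, so this order does not rank the snoRNAs by level.

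Nearly all snR24 reads lay on the mature snoRNA. The body held 67.6 and 50.2 scaled read ends in WT and 66.5 and 41.6 in Delta_Dbp3 (ratio 0.917, exact permutation p = 0.667). The flanks, where the intron of the host transcript would be read, held 20 counts in WT A, 17 of them read starts within the 5 nucleotides before the body, and otherwise between 2 and 10 counts a library. The scaled flank values averaged 1 ± 0.901 in WT and 0.603 ± 0.602 in Delta_Dbp3, a ratio of 0.603 that turned to 1.66 without WT A and to 1.03 without Delta_Dbp3 A (exact permutation p = 0.667 with all libraries). At these counts a difference in intron-derived RNA was not detectable.

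Along the body, read starts formed 2 groups. The first nucleotide was the first base of 108 and 29 reads in WT A and B and of 28 and 4 reads in Delta_Dbp3, which is 25.5%, 10.4%, 7.47% and 1.93% of all read starts in the library. WT A stood above the others, and WT B and Delta_Dbp3 A were alike in count. Starts then gathered within the guide run for Am1449 and Gm1450, with 88, 124, 161 and 79 in the same order, and in the 41 nucleotides between both guide runs, with 154, 82, 125 and 65. The 3′ ends lay mostly between the guide runs, with 73.8% and 89.6% of them in WT and 86.7% and 86% in Delta_Dbp3.

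**Figure D5:**
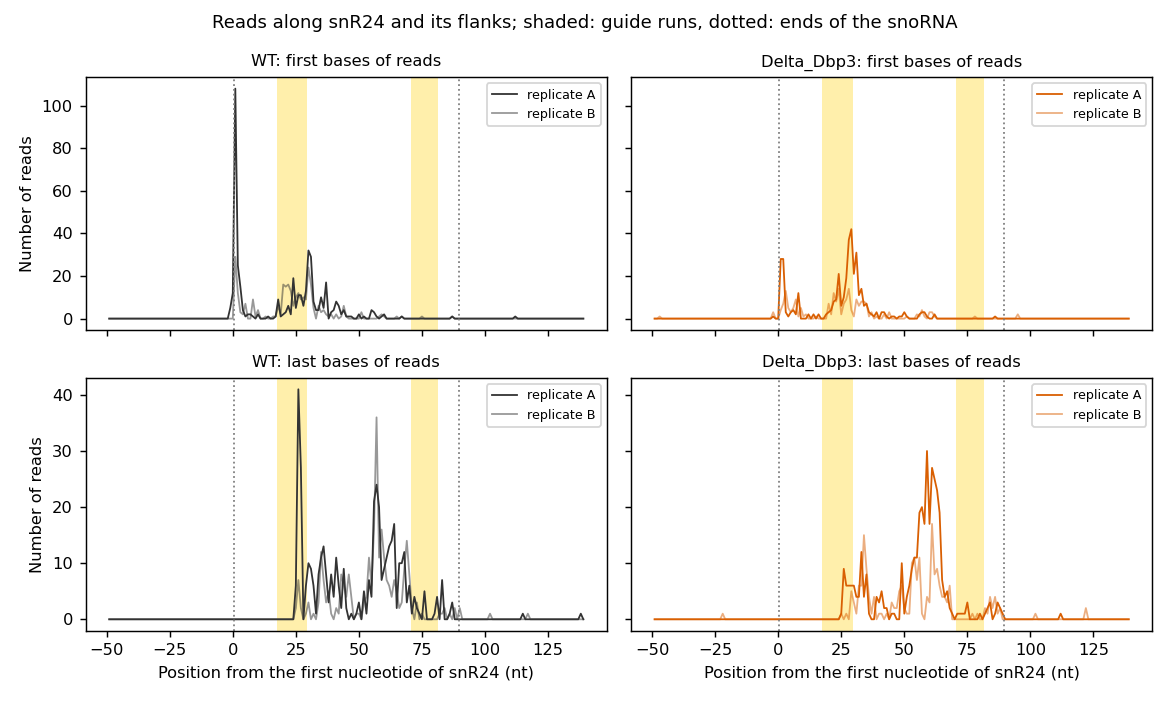
Number of reads by first base (top) and last base (bottom) along snR24 and its flanks (x axis, nucleotides from the first nucleotide of the body), WT on the left and Delta_Dbp3 on the right, 1 line a library. Shaded bands are the guide runs at 18 to 29 and 71 to 81, and dotted lines are the ends of the body; the first nucleotide starts 108 reads in WT A and 4 in Delta_Dbp3 B.

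The guide run for Cm1437 held few read ends. It held 0, 1, 0 and 1 read starts and 18, 6, 8 and 2 3′ ends in WT A, WT B, Delta_Dbp3 A and Delta_Dbp3 B. The 8 nucleotides after it, with box D, held 1, 1, 1 and 0 starts and 11, 7, 13 and 16 3′ ends. Read ends were denser over the first guide run, at 14, 11.3, 15.8 and 7.17 counts per nucleotide, than over the second, at 1.64, 0.636, 0.727 and 0.273. The order of the 2 runs was the same in all 4 libraries. A read of the selected size, 20 to 40 nucleotides, that starts in the second run would end past the body. Few read starts can therefore arise there. The 3′ ends alone had the same order, with 80, 12, 28 and 7 in the first run, libraries in the same order. The part of fragment size in the order of the runs was not tested.

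Single nucleotides of snR24 were compared with edgeR's quasi-likelihood test over 5436 nucleotides of all shared reference RNAs. Of the 189 nucleotides of the reference, 86 had no read end in any library and 26 had a mean of at least 10 and were tested, all between the bond before the first nucleotide and nucleotide 64. None of the 26 passed, and 0% of all 5436 did. Those 5436 include Am1449 of 25S, with 94 and 44 read ends in WT and 423 and 572 in Delta_Dbp3. Since this test did not call that nucleotide either, the lack of calls on snR24 does not show a lack of change. At an unadjusted p under 0.05 there were 1 of 26 and 526 of 5436, and DESeq2 called 0 of 26 and 91 overall. The nucleotide with the most read ends was the bond before the first nucleotide, with 108, 29, 28 and 4, a log2 fold change of -1.97 with an unadjusted p of 0.0492 and an adjusted p of 0.515 (edgeR). The next were the bonds after U30 (39, 19, 37 and 12), U26 (52, 16, 28 and 9), A27 (33, 12, 43 and 15) and U29 (38, 25, 27 and 6), with adjusted p-values of 0.974, 0.832, 0.886 and 0.804. The last 3 lie within the first guide run, U26 being the nucleotide opposite Am1449. The median log2 fold change of the 26 was 0.14, beside 0.16 over all nucleotides tested.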

How the data were processed

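RiboMeth-seq was made from whole cell RNA of 8 libraries. Per the submitters' processing notes, cutadapt 2.0 and Bowtie2 2.3.4.1 were used, with settings and filters not given in the sources used here. The deposited counts are, per the file headers, reads with a 5′ end, a 3′ end and either end at each nucleotide. The authors' score is deposited as a fraction (headed as a percent). It was recomputed from the counts, with weights falling from 1 to 0.5 over 6 neighbours a side, and differed from the deposited score by at most 5e-10 over 41360 nucleotides. In 6 of the 220 deposited group means, none at the U24 targets, the authors used 5′ ends alone in 1 library, and these values were kept. The deposited tables hold 16 further columns of per-library scores that were not used. A library count of 5557319 to 14191112 read ends on 18S plus 25S sets the precision, with 40 to 1540 read ends at a target. Of the 110 WT site values, 5′ ends were fewest at the site itself in 102, so a deposited 5′ end belongs to a read whose first base is the next nucleotide, and 5′ ends on snR24 were moved by 1 nucleotide for the body, flanks and segments.

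Scores at 55 sites were fitted with limma 3.58.1 (R 4.3.3) over all 8 libraries without a block, with Benjamini-Hochberg adjustment within each comparison and a threshold of 0.05. The moderation added 1.31 prior degrees of freedom to 4 residual. Read ends per nucleotide were tested with edgeR 4.0.16 (library size of 18S plus 25S read ends, mean of at least 10), with DESeq2 1.42.0 as an alternative, and snR24 values with exact permutation tests (Python 3.11.15). The limma and edgeR procedures were also run on simulated data with known changes, and the outcome is not given here. The members, the lists and the named sites (all members, the U18, snR60 and snR63 targets, guides from introns by counts, the 5 snR24 nucleotides with the most read ends, and the 3 sites most like Am1449) were chosen with earlier results of these data known. The snR24 body was to be bounded by its boxes or the annotated gene. Since AUGAUG also occurs in the flank, the RefSeq (R64) gene length and equal flanks were used, and no genome build is named in the sources used here, so no genome coordinates are given. Guide assignments are general knowledge.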

Additional observations from a re-analysis of the deposited data

Results flagged for a closer look

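At Cm1437 and Am1449 the change from WT to Delta_Dbp3 and the change from PRP43_Gal to PRP43_Glu differed by a test of the difference itself (limma, Benjamini-Hochberg over 55 sites). Cm1437 changed by -0.134 from WT to Delta_Dbp3 and by -0.361 from PRP43_Gal to PRP43_Glu, a difference of 0.227 with an adjusted p of 0.00922. Am1449 changed by -0.244 and -0.502, a difference of 0.258 with an adjusted p of 0.011. At neither site was the difference called on a log2 odds scale, with 5′ ends alone or with edgeR on read ends. In both comparisons the lower group carried the same pair of barcodes, and at both sites both libraries of each lower group lay below both of its control. The 2 comparisons also differ in strain, in medium and in depth, with PRP43_Glu the shallowest group, and the part of these in the difference was not tested. The groups held 2 libraries each, too few to look for a library that stands apart.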

How the results depend on the processing

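Of the 3 U24 targets, 3 were called between Delta_Dbp3 and WT, 1 with 3′ ends alone and 1 to 3 with 1 library left out, the lowest without WT A or WT B. All 3 were called in PRP43_Glu under every alternative run, and 0 in PRP43_Gal against WT. There the change turned sign with 5′ ends alone at Cm1437 (0.00751) and Gm1450 (0.00715) and, with 1 library left out, at Gm1450 (from -0.0582 without PRP43_Gal B to 0.00644 without PRP43_Gal A), none of them called. The difference of both changes was called at 2 targets, and at 0 on log2 odds, with 5′ ends alone and with edgeR, where Gm1450 turned to -0.507 on the log2 scale (adjusted p = 0.797). With 1 library left out, it was called at 2 targets each time. Fitted without the other groups, Gm1450 in Delta_Dbp3 had an adjusted p of 0.0856, and with both ends in every library 0.0559. The causes were not tested. With 1 library left out, the snR24 ratio of Delta_Dbp3 over WT ran from 0.711 to 1.11, that of the body from 0.706 to 1.13 and that of the flanks from 0.178 to 1.66. Placing 5′ ends as deposited, chosen after seeing the data, gave 0.989 for the body and 0.305 for the flanks. No snR24 nucleotide was called under any setting, and a mean of at least 50 left none to test. The replicates share only a letter, and deviations of same-letter libraries correlated between -0.276 and 0.327 over the 55 sites. With the replicate block, 2 of 3 targets were called in Delta_Dbp3 (Gm1450 with an adjusted p of 0.0764), 3 in PRP43_Glu and 0 snR24 nucleotides. Depth limits the snR24 flanks, with 2 to 20 read ends a library, and the guide run for Cm1437, with 3 to 18. With 1 library left out, chosen after seeing the data, the ratio of unprotected shares at Gm1450 ran from 7.37 to 16 for Delta_Dbp3 over WT and from 4.28 to 22.6 for PRP43_Glu over PRP43_Gal.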
